A study of Mus musculus with 12 samples.

Results

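The genes described here encode the enzymes that build fatty acids in the cytosol and those that supply the NADPH this synthesis uses, together with the lipogenic nuclear protein Thrsp. All 10 symbols chosen for these steps, Acly, Acss2, Acaca, Acacb, Fasn, Thrsp, Me1, G6pdx, Pgd and Idh1, matched 1 identifier each among the 33200 gene identifiers of the table, and all 10 passed the filter on low counts. They were measured by poly(A) RNA sequencing in whole inguinal white fat (iWAT), which lies under the skin, so adipocytes are mixed with vascular, immune and progenitor cells. The tested mice carry a global Nrep-/- knockout (KO) made by CRISPR/Cas genome editing, and the others are wild type (WT) C57BL/6. All were 16 weeks old and ate a standard maintenance diet, and each genotype has 3 libraries, described as biological replicates. The comparison addresses which transcripts differ with the loss of Nrep within this tissue. Neither the sex of the mice nor the deleted stretch of Nrep is stated in the sources used here, and the 6 liver samples are not analysed here.

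In adipocytes, fatty acid synthesis starts from acetyl-CoA made in the cytosol, by ATP citrate lyase from citrate that leaves the mitochondria or by acetyl-CoA synthetase from acetate. Acetyl-CoA carboxylase makes malonyl-CoA from it, and fatty acid synthase then joins acetyl and malonyl units into palmitate, using NADPH at each round of reduction. Malic enzyme, the oxidative branch of the pentose phosphate pathway and cytosolic isocitrate dehydrogenase are the usual suppliers of that NADPH. The genes of this route are known targets of the transcription factors SREBP-1c, which insulin activates, and ChREBP, which glucose activates.

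Of the 10 genes, 3 passed the test across all genes, and all 3 were higher in KO fat. Fasn, Thrsp and Me1 rose 3.41-fold, 3.21-fold and 3.60-fold in KO under TMM scaling, and 0 of the 10 genes passed when counts were scaled to adipocyte markers. Acly, Acss2, Acaca and Acacb had fitted folds of 2.81, 2.94, 2.35 and 2.11 and did not pass. G6pdx, Pgd and Idh1 had the lowest fitted folds, at 1.44, 1.75 and 1.28, and did not pass either. Thus 3 of 10 genes passed in the higher direction, where 0.864% of the 16659 tested genes did, and 0 of 10 in the lower direction, where 0.162% did. No gene of the 10 had an unadjusted p under 0.05 in the lower direction, in edgeR or DESeq2. The share of all tested genes with an unadjusted p under 0.05 was not counted. Such counts, here and below, are therefore descriptions without a comparison over all genes. The median log2 fold change of the 10 genes was 1.36, beside -0.06 for all tested genes. In 9 of the 10 genes every KO library lay above every WT library, which held for 15.2% of all tested genes, while 13.1% had every KO library below every WT library. The test was edgeR's quasi-likelihood test with Benjamini-Hochberg adjustment over all tested genes and a threshold of 0.05, and levels are TMM-normalised CPM, counts relative to library size, given as mean ± SD over 3 libraries.

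**Figure D1:**
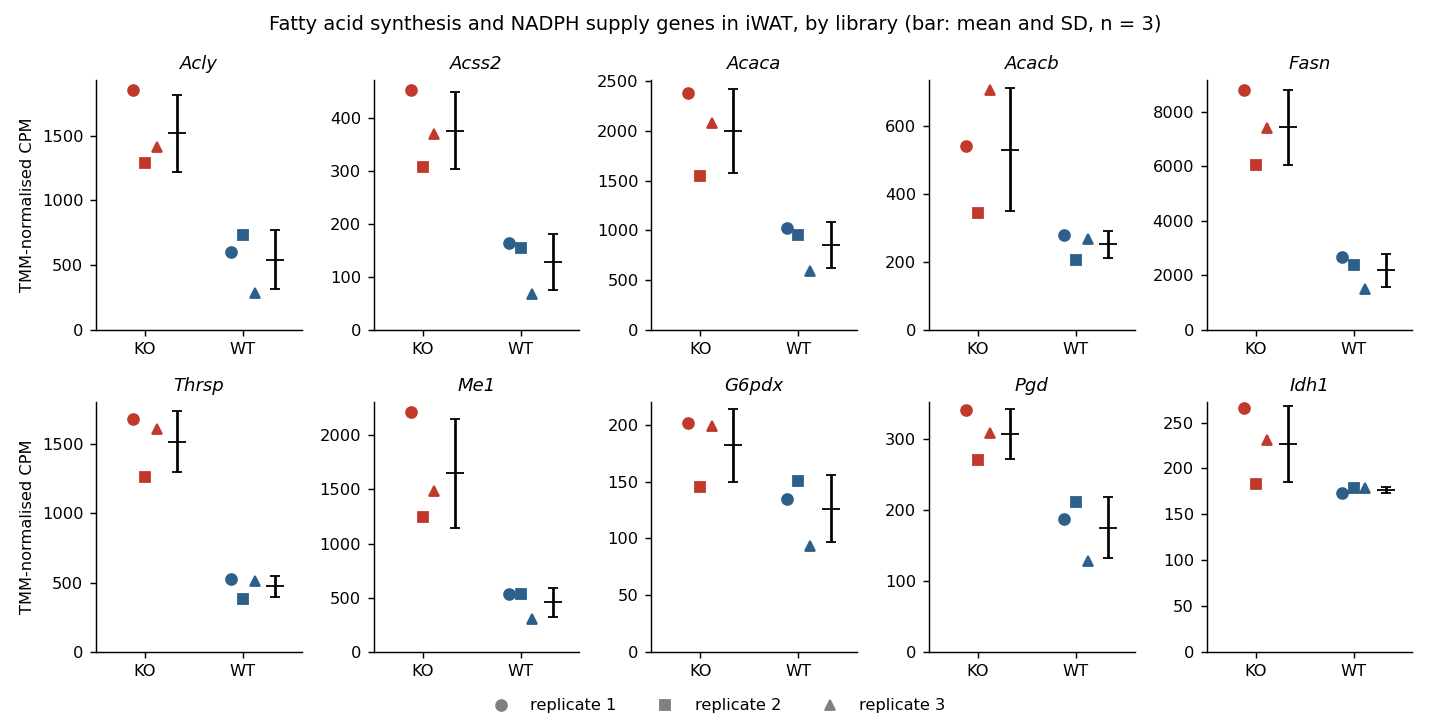
Expression of the 10 genes in each iWAT library, with TMM-normalised CPM on the vertical axes and KO to the left of WT; symbols mark the replicate and black bars the mean and SD of 3 libraries. G6pdx is the gene whose groups overlap, and the KO values of Idh1 start at 183 CPM, just above the highest WT value of 178 CPM.

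Promoter windows of the 3 genes that passed are shown because these genes changed together and are textbook targets of the same lipogenic regulators. Each window runs from 250 bases before to 50 bases after an annotated transcription start and comes from RefSeq on build GRCm38.p6; the start used in these libraries was not measured. All 10 genes had at least 1 window, 13 in all. Capitals mark the letters CCAAT, the box read by NF-Y, and GGGCGG, the GC box read by Sp1, on either strand, so they also appear as ATTGG and CCGCCC. The Fasn window is chr11:120824498-120824797, the Thrsp window chr7:97417501-97417800 and the upstream Me1 window chr9:86695865-86696164, all on the minus strand and written 5′ to 3′ along the gene.
Fasn: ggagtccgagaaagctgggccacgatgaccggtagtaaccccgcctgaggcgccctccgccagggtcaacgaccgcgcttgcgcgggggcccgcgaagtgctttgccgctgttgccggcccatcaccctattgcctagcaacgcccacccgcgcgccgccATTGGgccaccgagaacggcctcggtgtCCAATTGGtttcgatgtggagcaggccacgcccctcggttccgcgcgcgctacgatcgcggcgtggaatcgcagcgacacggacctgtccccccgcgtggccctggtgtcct
Thrsp: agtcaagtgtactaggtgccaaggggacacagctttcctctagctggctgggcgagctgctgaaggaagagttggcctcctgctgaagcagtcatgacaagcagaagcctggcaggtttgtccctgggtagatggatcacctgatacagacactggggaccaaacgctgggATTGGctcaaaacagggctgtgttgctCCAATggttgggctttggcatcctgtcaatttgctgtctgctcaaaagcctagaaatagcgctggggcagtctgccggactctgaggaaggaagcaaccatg
Me1: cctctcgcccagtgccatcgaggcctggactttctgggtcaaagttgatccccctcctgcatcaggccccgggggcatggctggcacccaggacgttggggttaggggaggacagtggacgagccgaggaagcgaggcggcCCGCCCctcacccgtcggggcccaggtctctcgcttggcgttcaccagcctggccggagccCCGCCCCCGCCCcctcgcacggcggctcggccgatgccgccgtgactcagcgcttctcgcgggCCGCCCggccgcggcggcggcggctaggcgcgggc
In Fasn, CCAAT or its complement begins 90, 62 and 59 bases before the start, where the last 2 matches overlap. In Thrsp, matches begin 79 and 52 bases before the start. The upstream Me1 window has none, and holds 4 GC boxes, of which 3 begin 109, 48 and 42 bases before the start. Me1 has 2 windows, and in the other, not shown, ATTGG begins 208 bases before its start. The CCAAT letters were in at least 1 window of 8 of the 10 genes, all except Acaca and G6pdx, and in 8 of 13 windows, against 37.4% of 32851 windows of the same length genome-wide. GGGCGG was in 7 of the 13 windows, from 6 genes, against 35.7% of all windows. The sterol element TCACNCCAC, the E-box CACGTG, the carbohydrate response element (CANGNG and CNCNTG with 5 bases between) and the liver X receptor element (GGTCA repeated with 5 bases between), each on both strands, were in 0 of the 13 windows. They were in 1.24%, 7.15%, 0.557% and 0.0761% of all windows. At shares this low, 13 windows are too few for 0 matches to set these genes apart from others. Bases outside the windows were not searched. Acaca has several annotated starts and its window covers 1 of them. These are matches of letters and not measured binding.

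Cytosolic acetyl-CoA comes from Acly and Acss2, which had similar fitted folds. Acly, ATP citrate lyase, had 1855, 1287 and 1416 CPM in KO replicates 1, 2 and 3, against 604, 733 and 286 CPM in WT replicates 1, 2 and 3. Its lowest KO library was 1.76 times its highest WT library, and WT replicate 3 lay far below the other WT libraries. The log2 fold change of Acly was 1.49 (SE 0.345, edgeR adjusted p = 0.0695), above the threshold. Acss2, the cytosolic acetyl-CoA synthetase that uses acetate, had 452, 306 and 369 CPM in KO replicates 1, 2 and 3, against 164, 153 and 66.4 CPM in WT replicates 1, 2 and 3. WT replicate 3 was again the lowest library, and the groups did not overlap. The log2 fold change of Acss2 was 1.56 (SE 0.338, edgeR adjusted p = 0.0635). Counts of Acly per count of Acss2 were 4.10, 4.20 and 3.84 in KO and 3.69, 4.78 and 4.31 in WT, so the groups overlapped in this ratio.

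Malonyl-CoA is made by Acaca, the cytosolic acetyl-CoA carboxylase that feeds synthesis, and by Acacb, its paralogue at the outer mitochondrial membrane, whose product restrains fatty acid entry for oxidation. Acaca had 2383, 1546 and 2077 CPM in KO replicates 1, 2 and 3, against 1019.8, 949 and 591 CPM in WT replicates 1, 2 and 3. The KO libraries all lay above the WT libraries, by a log2 fold change of 1.23 (SE 0.269, edgeR adjusted p = 0.0630). Acacb had 541, 342 and 703 CPM in KO replicates 1, 2 and 3, against 279, 205 and 268 CPM in WT replicates 1, 2 and 3. It was the gene in which KO replicate 3, not KO replicate 1, was highest, and the groups did not overlap. Its log2 fold change was 1.08 (SE 0.269, edgeR adjusted p = 0.0788). Acacb is also the main carboxylase of skeletal muscle. The 14 skeletal muscle markers summed to 4345, 723 and 4058 CPM in KO replicates 1, 2 and 3 and to 12.0 to 17.9 CPM in WT, and their part in the Acacb difference was not tested. The log2 ratio of Acacb to Acaca counts was -1.96 ± 0.344 in KO and -1.74 ± 0.547 in WT (SD, n = 3 each). The groups overlapped and the difference of -0.22 did not pass an exact permutation test (two-sided p = 0.7, where the design allows no less than 0.1). Without WT replicate 3, whose ratio was the highest of the 6 libraries, the difference was 0.083.

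Fasn, which carries out every step from malonyl-CoA to palmitate, held the most counts of the 10 genes in every library. It had 8809, 6061 and 7403 CPM in KO replicates 1, 2 and 3, against 2665, 2371 and 1498 CPM in WT replicates 1, 2 and 3. Its lowest KO library held 2.27 times the level of its highest WT library. Fasn averaged 7424 ± 1374 CPM in KO and 2178 ± 607 CPM in WT (SD, n = 3 each). Its log2 fold change was 1.77 (SE 0.289, edgeR adjusted p = 0.0458). It took 0.810%, 0.626% and 0.673% of all counts in KO replicates 1, 2 and 3, and 0.279%, 0.250% and 0.156% in WT replicates 1, 2 and 3. By counts it was between the 10th and 11th gene of each KO library and between the 19th and 43rd of each WT library. Thrsp, a small thyroid hormone-responsive nuclear protein that promotes lipogenic gene expression, had 1679, 1266 and 1609 CPM in KO replicates 1, 2 and 3, against 523, 385 and 511 CPM in WT replicates 1, 2 and 3. It had the widest gap between groups, with the lowest KO library at 2.42 times the highest WT library. Thrsp also had the smallest adjusted p of the 10 genes, with a log2 fold change of 1.68 (SE 0.205, edgeR adjusted p = 0.0279). Its paralogue Mid1ip1, which also binds acetyl-CoA carboxylase, had 31.9 ± 3.50 CPM in KO and 26.9 ± 4.21 CPM in WT (SD, n = 3 each), with overlapping groups and an edgeR adjusted p = 0.356.

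The NADPH-supplying enzymes had fitted folds between 1.28 and 3.60, and the differences between their folds were not tested. Me1, the cytosolic malic enzyme that turns malate into pyruvate, had 2214, 1247 and 1488 CPM in KO replicates 1, 2 and 3, against 538, 534 and 303 CPM in WT replicates 1, 2 and 3. The lowest KO library lay at 2.32 times the highest WT library, and Me1 had the largest log2 fold change of the 10 genes, 1.85 (SE 0.308, edgeR adjusted p = 0.0466). G6pdx, the glucose-6-phosphate dehydrogenase that commits glucose to the oxidative pentose phosphate branch, had 202, 145 and 199.6 CPM in KO replicates 1, 2 and 3, against 135, 151 and 93.2 CPM in WT replicates 1, 2 and 3. KO replicate 2 lay below WT replicate 2, so the groups overlapped, and the log2 fold change was 0.53 (SE 0.214, edgeR adjusted p = 0.194). Pgd, the 6-phosphogluconate dehydrogenase of the next NADPH-yielding step, had 341, 271 and 309 CPM in KO replicates 1, 2 and 3, against 187, 211 and 128 CPM in WT replicates 1, 2 and 3. Its groups did not overlap and its log2 fold change was 0.81 (SE 0.206, edgeR adjusted p = 0.0818). Idh1, the cytosolic NADP-dependent isocitrate dehydrogenase, had 265, 183 and 231 CPM in KO replicates 1, 2 and 3, against 173, 178 and 178 CPM in WT replicates 1, 2 and 3. It was nearly constant across WT, its KO libraries began just above the WT range, and its log2 fold change was 0.36 (SE 0.161, edgeR adjusted p = 0.232).

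Ratios between 2 genes of the same library do not depend on how libraries are scaled, and several of them also separated the genotypes. These pairs were chosen after the fold changes were known and carry no test. Counts of Fasn per count of Acaca were 3.70, 3.92 and 3.56 in KO and 2.61, 2.50 and 2.53 in WT. The ratio was thus nearly constant within WT, although Fasn itself varied between 1498 and 2665 CPM there, and was higher in every KO library. Me1 gave 8.34, 6.81 and 6.45 counts per count of Idh1 in KO, against 3.11, 3.00 and 1.70 in WT. Even the lowest KO library, replicate 3, was above the highest WT library in this ratio. Pgd gave 1.69, 1.86 and 1.55 counts per count of G6pdx in KO, against 1.39, 1.40 and 1.37 in WT, a small separation without overlap.

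**Figure D2:**
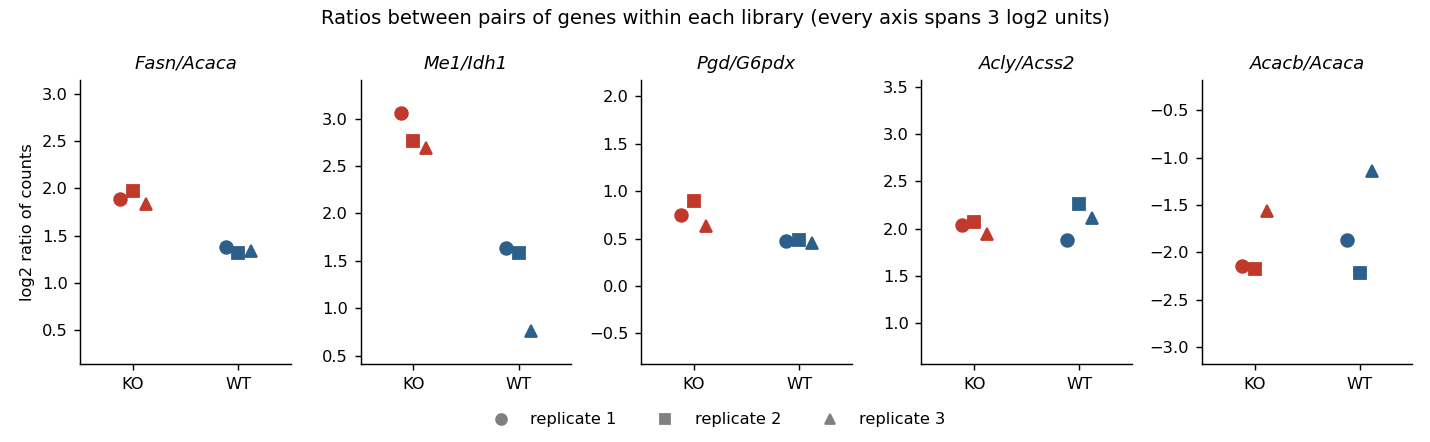
Log2 ratio of counts between pairs of genes in each library (vertical axes, all spanning the same range), KO to the left of WT, symbols marking the replicate. Fasn to Acaca, Me1 to Idh1 and Pgd to G6pdx were higher in every KO library than in every WT library, while Acly to Acss2 and Acacb to Acaca overlapped.

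Per kilobase of annotated exon, Thrsp and Fasn had the highest TMM-normalised CPM, 694 ± 101 and 678 ± 126 in KO and 216 ± 35.0 and 199 ± 55.5 in WT, and their mean ± SD intervals overlapped in both genotypes. Me1 followed with 429 ± 131 in KO and 119 ± 35.0 in WT, and Acly with 288 ± 56.5 in KO and 102 ± 43.6 in WT. Each neighbouring pair from Thrsp to Acly overlapped in this way. Acaca was at 117 ± 24.8 in KO, clear of Acly, and at 50.0 ± 13.5 in WT, where the 2 intervals overlapped. Idh1 was at 81.7 ± 14.9 in KO and 63.7 ± 1.17 in WT, so it stood below Acaca in KO and above it in WT, with overlapping intervals in both. G6pdx, Acacb, Pgd and Acss2 had 37.0 to 59.2 in KO and 12.6 to 41.0 in WT (SD, n = 3 each, throughout). Exon length is the union of all annotated exons, which is at least as long as any 1 transcript. It was 17074 bases for Acaca and 10163 bases for Acss2. Its excess over the transcripts present was not measured, so the order of the genes also depends on the annotation.

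The libraries kept nearly the same order across the 10 genes. KO replicate 1 was the highest library for 9 of them and KO replicate 3 for 1. KO replicate 2 was the lowest KO library for all 10 and the third highest of the 6 libraries for 9. Relative to the WT mean of each gene, the median over the 10 genes was 3.11, 2.09 and 2.71 in KO replicates 1, 2 and 3, and 1.12, 1.14 and 0.711 in WT replicates 1, 2 and 3. WT replicate 3 was the lowest library for 7 genes. Together the 10 genes took 1.72%, 1.31% and 1.44% of all counts in KO replicates 1, 2 and 3, and 0.658%, 0.618% and 0.409% in WT replicates 1, 2 and 3. The calls depended on single libraries: without KO replicate 1, KO replicate 3, WT replicate 1 or WT replicate 2, 0 of the 10 genes passed in edgeR, while 8, 8, 8 and 9 had an unadjusted p under 0.05. Those 4 fits called 2, 3, 1 and 1 genes of the whole table. Without WT replicate 3, Acss2 and Thrsp passed among 334 called genes, and without KO replicate 2 all 10 did, where 14.5% of all tested genes were called higher and 10.9% lower. DESeq2 called 8 of the 10 higher on all libraries, all except G6pdx and Idh1, where it called 7.34% of tested genes higher and 3.6% lower. limma-voom called Thrsp alone, where it called 0.09% of genes higher and 0.006% lower. An adjusted p of 0.10 in edgeR also gave 8 of the 10, beside 5.52% of genes higher and 2.75% lower. With every detected gene kept, 7 of the 10 passed, beside 2.78% higher and 1.33% lower, and with library totals in place of TMM 3 did, beside 0.774% higher and 0.294% lower.

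Markers of mature adipocytes, the cells that define the labelled tissue, were detected in every library and had a higher summed level in KO. Adipoq, the adipocyte hormone adiponectin, named here after its values were seen, had 2290.3, 1571 and 2879.9 CPM in KO replicates 1, 2 and 3, against 1381, 1306 and 1574 CPM in WT replicates 1, 2 and 3, with overlapping groups. The 14 markers summed to 27188 to 48419 CPM in KO and 19949.5 to 26541 CPM in WT, without overlap. In 10 of the 14 every KO library was above every WT library, which held for 15.2% of all tested genes. Of the 14, 0 passed in edgeR, where 11 had an unadjusted p under 0.05 in the higher direction, and 12 passed in DESeq2. Their median log2 fold change was 0.80. WT replicate 3 had the highest adipocyte marker sum of the WT libraries and the lowest sum of the 10 genes, 3922 CPM against 6287 and 5870.0 CPM in WT replicates 1 and 2. KO replicate 2 had 27188 CPM of the markers, close to WT replicate 3 with 26541 CPM, and 12654 CPM of the 10 genes against 3922 CPM. These were the KO library with the lowest marker sum and the WT library with the highest. At the other ends, KO replicate 3 had 48419 CPM of the markers and 15805 CPM of the 10 genes. WT replicate 2 had 19949.5 CPM of the markers and 5870.0 CPM of the 10 genes, so the contrast depends on the libraries compared. In bulk tissue, more adipocytes and more RNA of these genes per adipocyte cannot be told apart.

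**Figure D3:**
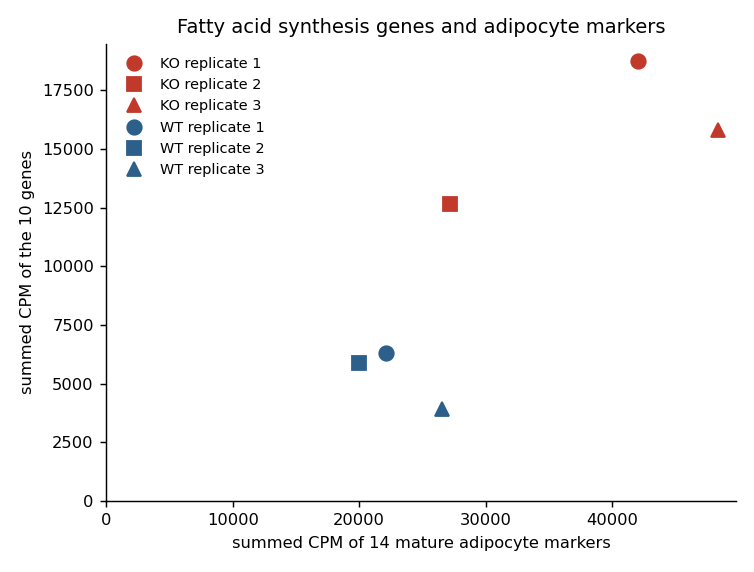
Summed TMM-normalised CPM of the 10 genes (vertical axis) against that of 14 mature adipocyte markers (horizontal axis), 1 point per library, KO in red and WT in blue. KO replicate 2 and WT replicate 3 have similar marker sums, 27188 and 26541 CPM, and different sums of the 10 genes, 12654 and 3922 CPM. They have the lowest marker sum in KO and the highest in WT. At the other ends, KO replicate 3 and WT replicate 2 have 48419 and 19949.5 CPM of the markers and 15805 and 5870.0 CPM of the 10 genes.

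Scaled to the summed counts of those markers in place of TMM, Fasn, Thrsp and Me1 kept a difference near 2-fold between the genotypes. The sum rests mostly on Fabp4, Car3 and Cfd, named here after their values were seen. They averaged 9347, 9160 and 7981 CPM in KO and 5003, 4807 and 5337 CPM in WT. Adipoq, the next marker, averaged 2247 CPM in KO and 1420 CPM in WT. Fasn had 209.6, 223 and 153 counts per 1000 marker counts in KO replicates 1, 2 and 3, against 120.3, 119 and 56.4 in WT replicates 1, 2 and 3. Thrsp had 40.0, 46.6 and 33.2 in KO, against 23.6, 19.3 and 19.2 in WT. Me1 had 52.7, 45.9 and 30.7 in KO, against 24.3, 26.8 and 11.4 in WT. In these 3 genes every KO library was above every WT library, and the other 7 overlapped. The share of all tested genes without overlap was not counted on this scale, so these counts have no comparison. On this scale the log2 fold changes of Fasn, Thrsp and Me1 were 0.99, 0.95 and 1.05 (SE 0.333, 0.260 and 0.363), and those of Acly, Acss2, Acaca, Acacb and Pgd lay between 0.04 and 0.75. G6pdx and Idh1 turned negative, at -0.27 and -0.40. Of the 10 genes 0 passed in edgeR on this scale, where 3 had an unadjusted p under 0.05 and the lowest adjusted p was 0.0814. All tested genes had a median log2 fold change of -0.76 on this scale, with 0.486% called higher and 1.52% lower.

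**Figure D4:**
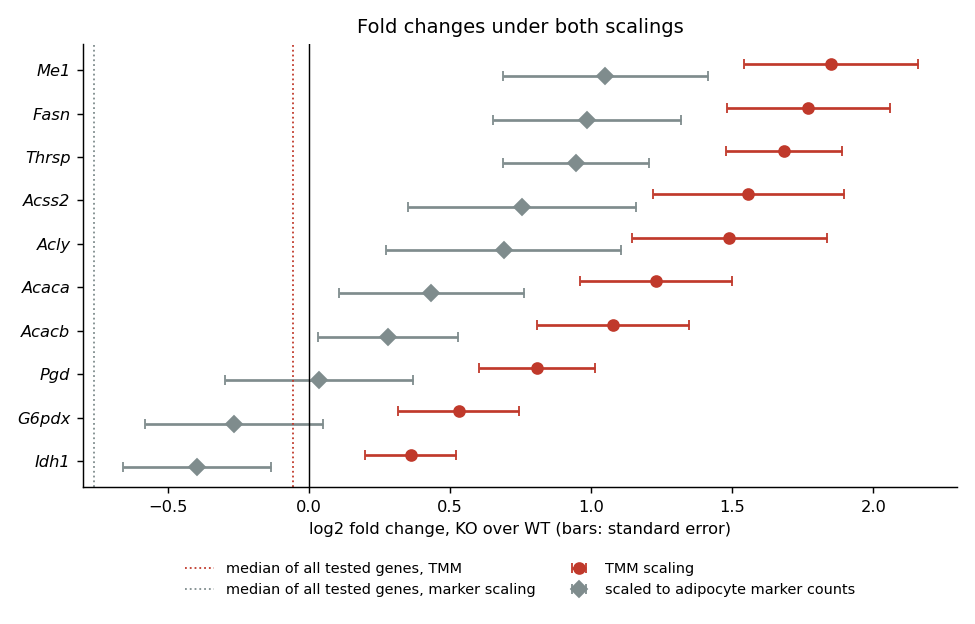
Log2 fold change of KO over WT for the 10 genes (horizontal axis; bars are standard errors), ordered by size, under TMM scaling and under scaling to the adipocyte marker counts. Fasn, Thrsp and Me1 are highest on both scales, at 1.68 to 1.85 and 0.95 to 1.05, and dotted lines mark the median of all tested genes on each scale.

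Markers of other cells differed as well, and their part in these differences was not tested. Of 13 tested skeletal muscle markers 11 passed higher in edgeR, also with RLE size factors, with library totals and with scaling to the adipocyte markers. Without KO replicate 1, KO replicate 3, WT replicate 1 or WT replicate 2, 0 or 1 of the 13 passed. The 10 macrophage markers summed to 2171 to 2371 CPM in KO and 3025 to 4348 CPM in WT. B and T cell markers summed to 1079, 2351 and 686 CPM in KO replicates 1, 2 and 3 and to 1700.4 to 2368 CPM in WT. The groups overlapped through KO replicate 2 alone, and the other KO libraries lay below every WT library. The 7 epithelial markers, which would mark mammary tissue, another site of fatty acid synthesis, summed to 1.00 to 4.24 CPM in KO and 1.92 to 7.88 CPM in WT. Liver markers summed to 21.3 to 45.0 CPM in KO and 18.3 to 18.9 CPM in WT, most of it Alb, while Apoa1 and Ttr averaged 0.0514 and 0.148 CPM in KO and 0.117 and 0.0673 CPM in WT. Brown and beige adipocyte markers summed to 193 to 423 CPM in KO and 67.1 to 204 CPM in WT, progenitor markers to 4192 to 7826 CPM in KO and 7258 to 8908 CPM in WT, and endothelial markers to 1072 to 1288 CPM in KO and 875 to 965 CPM in WT. Outside the muscle list 0 markers passed in edgeR under TMM, although 9 macrophage and 4 progenitor markers had an unadjusted p under 0.05 in the lower direction. In the higher direction 3 brown and beige, 3 endothelial and 2 liver markers did, beside the adipocyte markers. Under marker scaling 5 macrophage and 1 progenitor markers passed lower and 1 brown and beige marker higher. DESeq2 called 5 macrophage and 2 progenitor markers lower, and 3 brown and beige, 2 endothelial and 1 liver markers higher. No marker was at 0 in all libraries. Nrep itself had 2, 2 and 5 counts in KO replicates 1, 2 and 3, against 1404, 1640 and 1300 in WT replicates 1, 2 and 3. Library totals lay between 17970451 and 20369345 counts, so the lowest count of any of the 10 genes in a library, 1390, was far above the floor of 3 counts, which is 0.172 CPM at most.

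Among the steps that bring carbon to the cytosol, 4 of 12 tested genes passed higher in edgeR, 0 passed lower, and the median log2 fold change was 0.93. Over all tested genes, edgeR called 0.864% higher and 0.162% lower, and DESeq2 7.34% higher and 3.6% lower. These shares also apply to the lists that follow. All 12 had an unadjusted p under 0.05 in edgeR in the higher direction, and DESeq2 called 11 higher. For the unadjusted counts of this and the following lists, no share over all tested genes was counted. Slc25a1, the mitochondrial citrate carrier upstream of Acly, had 841, 604 and 800.1 CPM in KO replicates 1, 2 and 3, against 339, 297 and 223 CPM in WT replicates 1, 2 and 3, a 2.62-fold difference (edgeR adjusted p = 0.0436). Slc25a10, the dicarboxylate carrier that exchanges malate, had 219 ± 34.7 CPM in KO and 97.6 ± 8.64 CPM in WT (SD, n = 3 each), a 2.24-fold difference (edgeR adjusted p = 0.0325). Pdhb and Dlat, which belong to the complex that makes mitochondrial acetyl-CoA from pyruvate, rose 2.31-fold and 2.05-fold (edgeR adjusted p = 0.0390 and 0.0438). In all 12 genes every KO library was above every WT library, which held for 15.2% of all tested genes. Beyond palmitate, 5 of 12 elongases, desaturases and acyl-CoA synthetases had an unadjusted p under 0.05 in edgeR in the higher direction, and DESeq2 called 4 higher. The median was 0.32, and in edgeR 0 passed lower and 1 passed higher. That gene was Elovl6, which extends palmitate to stearate, with 548, 262 and 385 CPM in KO replicates 1, 2 and 3, against 109, 81.5 and 66.8 CPM in WT replicates 1, 2 and 3 (4.65-fold, edgeR adjusted p = 0.0369).

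Among the rest of the pentose phosphate pathway and the other NADPH producers, Tkt alone passed in edgeR. Tkt, the transketolase of the non-oxidative pentose phosphate branch, had 1874, 1364 and 1579 CPM in KO replicates 1, 2 and 3, against 759, 688 and 528 CPM in WT replicates 1, 2 and 3, a 2.44-fold difference (edgeR adjusted p = 0.0461). It was the 1 gene of 6 in the rest of that pathway to pass in edgeR, and it makes no NADPH itself. Of those 6, 4 had an unadjusted p under 0.05 in edgeR in the higher direction and DESeq2 called 2 higher, with a list median of 0.40. Of 11 other NADPH producers, 0 passed in edgeR, while 1 in the higher and 2 in the lower direction had an unadjusted p under 0.05, and DESeq2 called 1 in each direction. Their median log2 fold change was 0.22. Nadk, the cytosolic NAD kinase that makes NADP, had 285 ± 44.2 CPM in KO and 233 ± 11.9 CPM in WT, and Aldh1l1, a folate enzyme that yields NADPH, 211 ± 57.7 CPM in KO and 151 ± 18.7 CPM in WT (SD, n = 3 each), both with overlapping groups. The paralogues of the 10 genes, most of them mitochondrial, also gave 0 calls in edgeR, DESeq2 and limma-voom, and 0 had an unadjusted p under 0.05 in edgeR. Acss3 had 139 ± 56.2 CPM in KO and 88.6 ± 31.0 CPM in WT. Idh2, the mitochondrial counterpart of Idh1, had 106 ± 18.5 CPM in KO and 85.3 ± 4.49 CPM in WT, and Me2, that of Me1, 41.1 ± 13.0 CPM in KO and 55.3 ± 5.19 CPM in WT (SD, n = 3 each throughout). The G6pdx retrocopy G6pd2 is not analysed here.

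Among 12 lipogenic regulators, 4 had an unadjusted p under 0.05 in edgeR in the higher direction, and DESeq2 called 3 higher. In edgeR 1 passed higher and 0 lower, and the median was 0.11. Insig1, which retains the SREBP complex in the endoplasmic reticulum and is itself an SREBP target, had 181, 148 and 160.2 CPM in KO replicates 1, 2 and 3, against 99.1, 81.7 and 96.5 CPM in WT replicates 1, 2 and 3 (1.77-fold, edgeR adjusted p = 0.0466). Srebf1 and Mlxipl, the genes of SREBP-1 and ChREBP, are named here after their values were seen. Srebf1 had 255 ± 41.2 CPM in KO and 163 ± 5.55 CPM in WT, and Mlxipl 55.8 ± 16.7 CPM in KO and 26.3 ± 5.44 CPM in WT (SD, n = 3 each). Neither group pair overlapped and neither gene passed (edgeR adjusted p = 0.0725 and 0.0681). Of 8 genes that attach or supply cofactors, 3 had an unadjusted p under 0.05 in edgeR in the higher direction, and DESeq2 called 2 higher. The median was 0.50, and in edgeR 0 passed lower and 1 passed higher. It was Coasy, which completes coenzyme A, at 59.9 ± 6.84 CPM in KO and 36.4 ± 1.46 CPM in WT (SD, n = 3 each; edgeR adjusted p = 0.0468). Of 10 genes of the AMP-activated kinase, which inhibits acetyl-CoA carboxylase, and of malonyl-CoA breakdown and its target Cpt1, 0 passed in edgeR, 3 in the higher and 1 in the lower direction had an unadjusted p under 0.05, and DESeq2 called 3 higher. Their median was 0.13. Cpt1a, the mitochondrial entry enzyme that malonyl-CoA inhibits, had 90.7 ± 8.15 CPM in KO and 124 ± 16.0 CPM in WT without overlap, and Stk11, a kinase upstream, 103 ± 2.85 CPM in KO and 95.4 ± 0.998 CPM in WT (SD, n = 3 each). The 6 tested genes of mitochondrial fatty acid synthesis, a separate route that makes lipoic acid, had a median of 0.62, with 0 passing in edgeR, 5 with an unadjusted p under 0.05 and 5 called higher in DESeq2. Ndufab1 had 107 ± 23.0 CPM in KO and 62.7 ± 9.32 CPM in WT, and Mecr 47.2 ± 10.5 CPM in KO and 30.9 ± 3.89 CPM in WT (SD, n = 3 each). Of 8 NADPH users outside fat synthesis, with a median of 0.18, 0 passed in edgeR, 3 in the higher and 1 in the lower direction had an unadjusted p under 0.05, and DESeq2 called 2 higher. Por, the reductase of cytochrome P450 enzymes, had 495 ± 131 CPM in KO and 287 ± 16.0 CPM in WT, and Txnrd1, a thioredoxin reductase, 81.5 ± 9.08 CPM in KO and 89.2 ± 11.3 CPM in WT (SD, n = 3 each). Without KO replicate 1, KO replicate 3, WT replicate 1 or WT replicate 2, 0 genes of any of these pathway lists passed in edgeR. On the scale of adipocyte marker counts 0 passed as well: Elovl6 had a log2 fold change of 1.41 (adjusted p = 0.0559), Coasy one of -0.03, and the list medians were 0.18 for carbon supply and between -0.61 and -0.14 for all others. With library totals, Insig1 and Coasy did not pass, and the medians of the regulators and of the kinase list were -0.03 and -0.01.

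**Figure D5:**
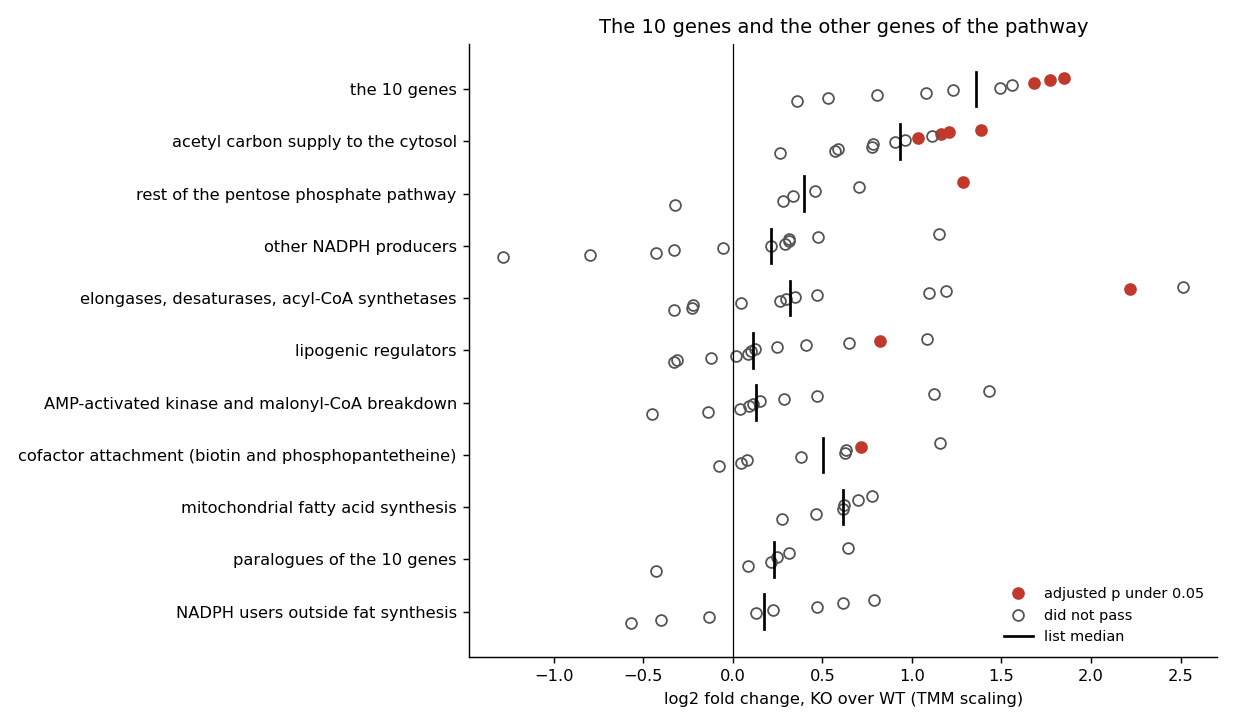
Log2 fold change of KO over WT (horizontal axis) for each tested gene of the 10 and of the other pathway lists, filled where the edgeR adjusted p was under 0.05, with a black bar at each list's median. The medians under TMM scaling are 1.36 for the 10 genes, 0.93 for acetyl carbon supply and between 0.11 and 0.62 for the other lists.

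The profile over the 6 libraries that the 10 genes shared was closest to that of Acaca among the 10 and to those of 5 other genes. The measure was the root mean square distance between log2 CPM centred on each gene's mean and the mean centred profile of the 10 genes, over 10172 genes with a mean of at least 10 CPM. Acaca lay at 0.0624 and Idh1, the farthest of the 10, at 0.497. The nearest genes outside the 10 were Tkt at 0.0666, Slc25a1 at 0.0869, Aldoa, a glycolytic aldolase, at 0.113, Oscp1 at 0.131 and the predicted gene Gm45716 at 0.133. Aldoa, counted under 1 of the 2 identifiers that share its symbol, had 1648, 1080.0 and 1669.5 CPM in KO replicates 1, 2 and 3, against 746, 669 and 540.2 CPM in WT replicates 1, 2 and 3, and did not pass (edgeR adjusted p = 0.0588). Gm45716 had 25.1, 21.5 and 23.0 CPM in KO, against 11.1, 10.4 and 8.60 CPM in WT, and passed (edgeR adjusted p = 0.0279).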

How the data were processed

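Per the labels' protocols, RNA of whole iWAT was poly(A)-selected and made into stranded Illumina libraries. The authors deposited estimated counts per gene, 1 column per library, unscaled and unpooled; in each library 9.53% to 11.1% of values had a decimal part. The counting program was not given in the sources used here. For the series, the submitters' processing notes name fastp, featureCounts, GRCm38 and GRCm39 without assigning them, so no gene coordinates are printed beyond the RefSeq promoter windows.

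Counts were rounded to whole numbers, and a gene symbol was matched to 26372 of 33200 identifiers. Exon lengths came from GENCODE M21. Totals lay between 17970451 and 20369345, and floors of 3 counts cover counting error only. KO was tested against WT with edgeR 4.0.16 (R 4.3.3), using TMM, filterByExpr, robust quasi-likelihood fits and Benjamini-Hochberg adjustment over 16659 genes, two-sided at 0.05. The SE is the log2 fold change divided by the square root of F. Alternatives were DESeq2 1.42.0, limma-voom (limma 3.58.1), other scalings, filters and thresholds, a block on replicate number, and each library left out in turn. Tests were checked on simulated counts. p-values measure the spread between libraries described as biological replicates.

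The 10 genes, the gene lists and the motifs were chosen with earlier results of these data known. Named from each list were up to 4 genes past the test, or the 2 with most CPM where none passed, plus the 5 nearest profiles. In the table Acly is ENSMUSG00000020917, Acss2 is ENSMUSG00000027605, Acaca is ENSMUSG00000020532, Acacb is ENSMUSG00000042010, Fasn is ENSMUSG00000025153, Thrsp is ENSMUSG00000035686, Me1 is ENSMUSG00000032418, G6pdx is ENSMUSG00000031400, Pgd is ENSMUSG00000028961 and Idh1 is ENSMUSG00000025950.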

Additional observations from a re-analysis of the deposited data

How the results depend on the processing

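All 10 genes kept a positive log2 fold change in all 15 alternatives, except G6pdx and Idh1 under scaling to adipocyte marker counts, at -0.27 and -0.40. These fits reuse the same libraries. The count of 3 genes (Fasn, Thrsp and Me1) was the same with RLE size factors, library totals, a filter of 1 CPM in 3 libraries and non-robust estimation. It was 8 in DESeq2, 1 in limma-voom, 7 without a filter, 7 with a replicate block, 8 at an adjusted p of 0.10 and 0 under marker scaling, and 0 to 10 without 1 library. Over all genes, 171 were called, 144 higher and 27 lower. DESeq2 called 1823 (1223 higher, 600 lower), limma-voom 16 (15 and 1), no filter 1360 (921 and 439), the replicate block 1226 (791 and 435), an adjusted p of 0.10 1378 (920 and 458) and marker scaling 334 (81 and 253). Scaling by totals called 49 genes lower and moved the median of all genes to -0.19. The range without any 1 library was 1 to 4222 genes called, with 0 to 2410 of them higher and 1 to 1812 lower; the cause was not tested. Whether libraries of the same number form pairs was not settled, since 3 libraries per genotype are too few for these correlations to decide it. Deviations of same-numbered libraries correlated at -0.012, 0.22 and 0.11 over genes. KO replicates 2 and 3 correlated best with their own number, and KO replicate 1 with WT replicate 3, at 0.18. The difference in the Acacb to Acaca ratio ranged from -0.45 to 0.083 without 1 library and turned positive without WT replicate 3, at 0.083; it was -0.22 with a replicate block.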
